A study of Mus musculus with 10 samples.

Results

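Cytosolic ribosomal proteins are the protein components of the large and the small subunit of the ribosome that translates nuclear-encoded mRNA. Their genes were taken by symbol, as all protein-coding genes whose name starts with Rpl or Rps and a digit, plus Rpsa, Rplp0, Rplp1 and Rplp2. The S6 kinase genes, whose names start with Rps6k, and symbols that end in -ps and a number were left out. This gave 86 of the 38887 genes in the deposited table, 52 of the large and 34 of the small subunit. The rule uses no measured value. It also takes in a few genes that are not standard ribosomal proteins. Rps19bp1 encodes a protein that binds RPS19, and Rpl7l1, Rpl22l1, Rps27l, Rpl36al, Rpl39l, Rpl3l and Rpl10l are paralogs of standard members. Rps27rt is a second gene with the coding sequence of the standard member Rps27.

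Ribosomal proteins are made in amounts that match each other and the ribosomal RNA, and their transcripts are among the most abundant of a growing cell. Most of these mRNAs begin with a 5′ terminal oligopyrimidine (5′ TOP) tract, a run of C and T at the start site, through which mTOR signalling controls their translation. Hematopoietic progenitors are sensitive to the supply of ribosomal proteins: loss of 1 copy of several of these genes causes Diamond-Blackfan anemia in humans. The protein kinase CK2 is known to phosphorylate the acidic stalk proteins of the large subunit, which are encoded by Rplp0, Rplp1 and Rplp2.

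RNA was sequenced from bone marrow hematopoietic progenitor cells of mice that all bore Lewis lung carcinoma, a transplantable mouse tumour. In the inhibitor group, called CK2i, mice had received 60 mg/kg of the CK2 inhibitor BMS-595 for 2 weeks. In the vehicle group, whose sample titles read untreated, mice had received vehicle for the same time. Each group had 5 libraries. Whether each library is a different mouse is not stated in the labels, and the p-values refer to the spread between samples, which may be partly technical. The selection of the progenitors, the age and genetic background of the mice and the dosing schedule are not stated there.

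Total estimated counts per library ran from 34127674 to 40811539 in CK2i and from 37569160 to 43636152 in vehicle. Progenitor markers were present, and of 8 listed, 3 were lower in CK2i by fold change, Kit and Myb among them, and the others were higher. Levels are in CPM, counts scaled to a common library size by TMM, a method that balances library composition. Kit, the stem cell factor receptor, was at 225 ± 19.2 CPM in CK2i and 269 ± 16.045 CPM in vehicle (SD, n = 5 each). Myb, a transcription factor of immature blood cells, was at 520 ± 15.6 CPM in CK2i and 543 ± 37.7 CPM in vehicle. Ly6a, another of the 8, was at 10.8 ± 3.40 CPM in CK2i and 8.57 ± 1.78 CPM in vehicle. Markers of other lineages were present too: Jchain, of B and plasma cells, was at 308 ± 66.2 CPM in CK2i and 592 ± 73.2 CPM in vehicle. The purity of the progenitors was not tested. On the first principal component of all tested genes, libraries CK2i 2 and CK2i 5 had scores of 36.0 and 35.2, far from the other inhibitor libraries (-3.95 to 9.81) and from vehicle (-24.5 to -8.13). Results were therefore also computed with CK2i 1, 3 and 4 as the only inhibitor libraries. By edgeR's quasi-likelihood test with Benjamini-Hochberg adjustment over all tested genes, 1892 of 14346 passed an adjusted p of 0.05 with all libraries and 175 of 14583 with CK2i 1, 3 and 4 only. In bulk RNA, fewer cells of a type and less RNA per cell cannot be told apart.

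Sequences around annotated start sites were searched for pyrimidine runs. A run there need not begin at the start site, as a 5′ TOP tract does, and the start sites used in these cells were not measured. The runs marked below in Rpl31 and Rpl37a, for example, end before the annotated start. Whether a member has a 5′ TOP tract was therefore not tested. RefSeq windows of 300 bases around annotated start sites, on GRCm38.p6, were found for 66 of the 86 members. The 15 bases before and 15 after a start are printed for the members that passed the test below and have a window, and for Rps28 and Rpl7l1, the members whose fold change lay above 0. They read 5′ to 3′ on the gene's strand, and capitals mark the longest pyrimidine run. Where a gene had several windows, the one with the longest run is shown.
Rpl15 (chr14:18270972-18271001, minus strand): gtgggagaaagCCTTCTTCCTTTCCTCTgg
Rpl31 (chr1:39367836-39367865, plus strand): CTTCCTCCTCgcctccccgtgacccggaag
Rpl22l1 (chr3:28805493-28805522, plus strand): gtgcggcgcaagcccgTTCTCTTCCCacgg
Rps21 (chr2:180257364-180257393, plus strand): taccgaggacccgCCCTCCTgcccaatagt
Rpl37a (chr1:72711245-72711274, plus strand): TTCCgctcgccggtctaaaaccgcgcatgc
Rps28 (chr17:33824548-33824577, minus strand): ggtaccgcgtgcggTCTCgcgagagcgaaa
Rpl7l1 (chr17:46782642-46782671, minus strand): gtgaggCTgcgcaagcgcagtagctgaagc
Within the printed bases the runs were 17 bases long in Rpl15, 10 in Rpl31 and in Rpl22l1, 7 in Rps21 and 4 in Rpl37a and in Rps28. Those of Rpl31 and Rpl37a start at the first printed base, so they may extend further upstream. Rpl7l1, whose product is not a standard ribosomal protein, had no run over 2 bases.

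A pyrimidine run of at least 8 bases in this window was present in 40.9% of the members with a window and in 13.9% of 26959 other genes. A run of at least 10 was present in 30.3% of members and 6.19% of other genes. In the full windows, searched on both strands, the letters CCGGAAG, a core that ETS factors can bind, occurred in 39.4% of members and 9.86% of other genes. The letters GGGCGG, bound by SP1, occurred in 62.1% of members and 38.1% of other genes, and TGACGT, bound by CREB family factors, in 18.2% of members and 8.35% of other genes. AAGATGGC, a YY1 motif, was found in 9.09% of members and 3.18% of other genes, and the E-box CACGTG in 9.09% of members and 8.09% of other genes. TATAAA was found in 10.6% of members and 15.7% of other genes. These matches describe letters in a window and not bound sites, and no motif contains another. Tested members with a run of at least 8 had a median log2 fold change of -0.12 (n = 26, of which 3 fell) and those with a shorter run one of -0.10 (n = 35, of which 2 fell).

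Ribosomal protein transcripts were lower in CK2i than in vehicle by a small and similar amount across both subunits, and few of these differences passed the test gene by gene. The median log2 fold change, CK2i over vehicle, was -0.10 over 49 tested large subunit genes and -0.10 over 32 tested small subunit genes, beside -0.00 over all genes tested. The fold change lay below 0 for 48 of the 49 large and 31 of the 32 small subunit genes, together 97.5% of the tested members, where 50.2% of all tested genes lay below 0. Members tended to be high or low together within a library, as described below, so they are not independent observations. In edgeR's quasi-likelihood test 6 members fell and none rose. These were 5 of the large subunit, Rpl15, Rpl37a, Rpl22l1, Rpl31 and Rpl17, and Rps21 of the small subunit. The 6 are 7.41% of the tested members, close to the 6.76% of all tested genes that fell. At an unadjusted p under 0.05, 40 of the 81 members were lower and none was higher, where 16.6% of all tested genes were lower. DESeq2 on the same counts called 16 members lower and none higher, 19.8% of those tested, where it called 9.44% of all genes lower, and the 6 were among them. By edgeR, no member passed without CK2i 2, without CK2i 5, without vehicle 1 or without vehicle 4, while 9 large and 3 small subunit genes passed without CK2i 3. The number of all genes that passed also moved widely between these fits, as given in the closing section. The member counts are therefore not read as a change particular to the members.

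**Figure D1:**
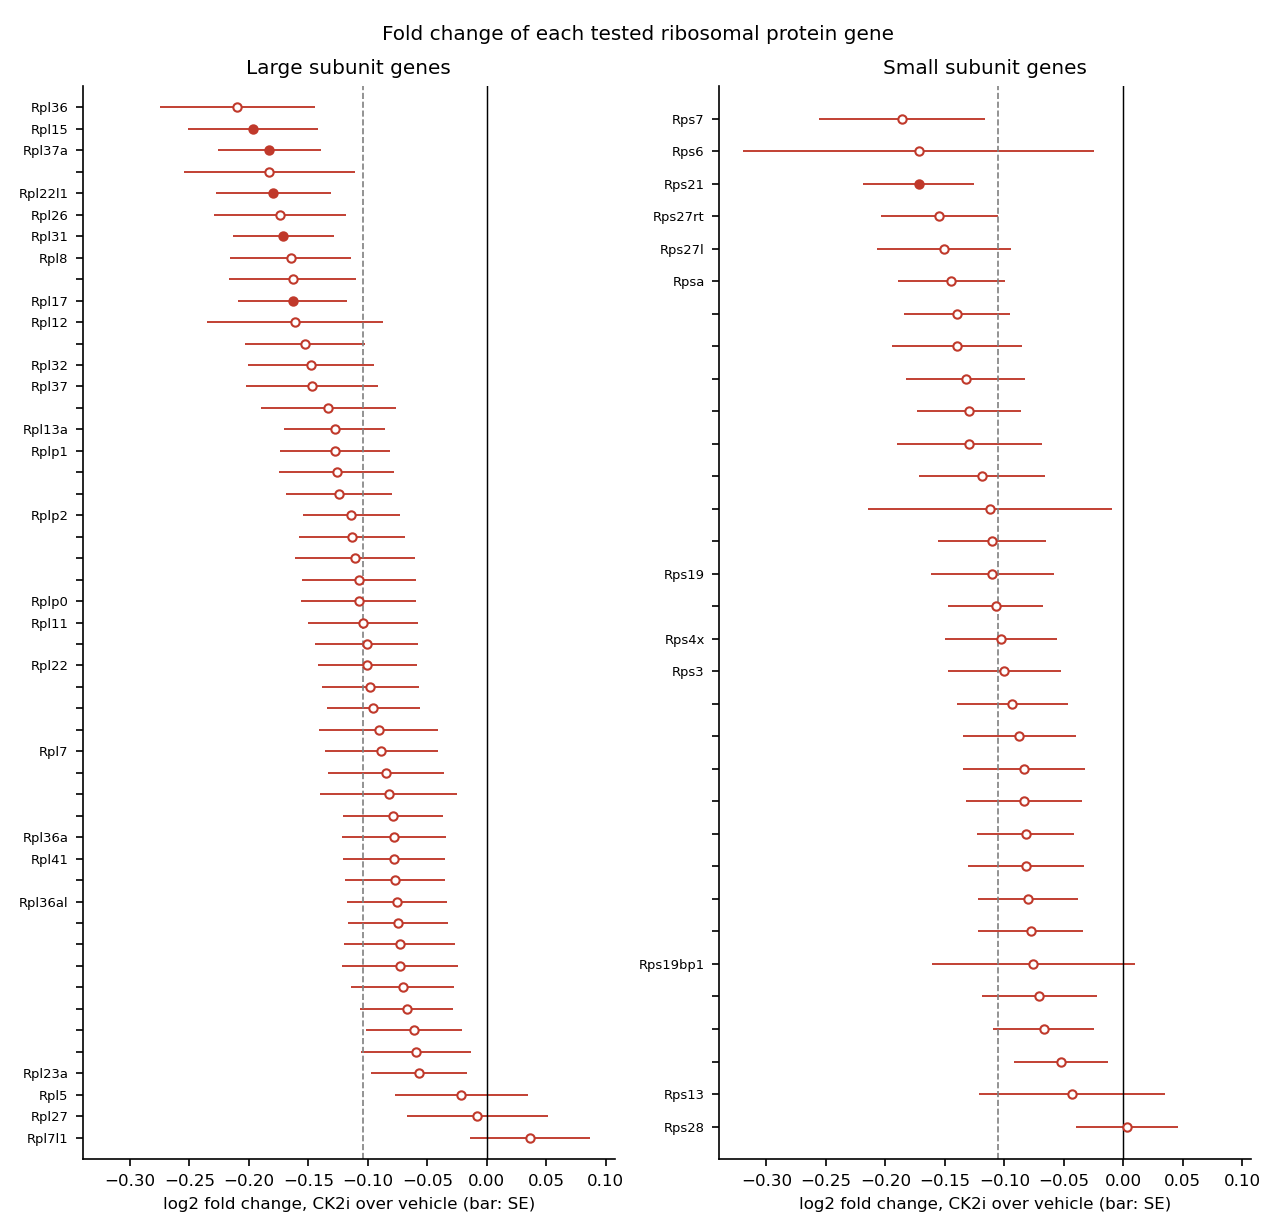
Log2 fold change (CK2i over vehicle) of each tested large (left) and small (right) subunit gene with its standard error; filled points passed an adjusted p of 0.05, the dashed line is the median of the subunit, and genes named in the text are labelled. All but Rpl7l1 and Rps28 lie below 0, around medians of -0.10 in both panels.

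The members were tightly grouped. Fold changes of the large subunit genes ran from -0.21 in Rpl36 to 0.04 in Rpl7l1 on the log2 scale, with an SD of 0.05 between genes. Those of the small subunit genes ran from -0.19 in Rps7 to 0.00 in Rps28, with an SD of 0.04. Most standard errors of a fold change, from 0.04 to 0.06, were about as wide as this scatter, and that of Rps6, at 0.15, was the widest. With CK2i 1, 3 and 4 only, the medians were -0.06 for the large and -0.05 for the small subunit, 46 of 49 and 30 of 32 genes lay below 0, and no member passed by edgeR, where 1.2% of 14583 genes did. At an unadjusted p under 0.05, 9 large and 3 small subunit genes were past it in that fit, all 12 of them lower and 14.8% of the members, where 10.1% of all genes were lower.

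As a share of all estimated counts, large subunit genes took 3.65% ± 0.23 in CK2i and 3.92% ± 0.11 in vehicle (SD, n = 5 each). Small subunit genes took 2.68% ± 0.18 in CK2i and 2.87% ± 0.09 in vehicle. In summed CPM this was 36464 ± 2041 in CK2i and 39269 ± 1250 in vehicle for the large subunit, a difference of -7.14%. For the small subunit it was 26739 ± 1564 in CK2i and 28806 ± 972 in vehicle, a difference of -7.18%. With near-identical copies included, the ratio of large to small subunit CPM differed by less than its spread and was 1.398 ± 0.007 in CK2i and 1.401 ± 0.008 in vehicle.

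Members tended to be high or low together within a library, more so in some libraries than in others. Of the 81 tested members, 61, 81, 75, 62 and 80 lay below the vehicle mean in CK2i 1 to 5, and 6, 22, 78, 51 and 72 did in vehicle 1 to 5. The median over large subunit genes of log2 CPM minus the vehicle mean was -0.04, -0.23, -0.08, -0.04 and -0.14 in CK2i 1 to 5. It was 0.07, 0.01, -0.04, -0.01 and -0.04 in vehicle 1 to 5. CK2i 2 and 5 were lowest, vehicle 1 was highest, and CK2i 1 and 4 lay within the range of the vehicle libraries. For the small subunit the medians were -0.02, -0.23, -0.09, -0.03 and -0.15 in CK2i 1 to 5 and 0.08, 0.02, -0.03, -0.00 and -0.06 in vehicle 1 to 5. CK2i 2 was the lowest of all 10 libraries for 68 of the 81 tested members, and vehicle 1 was the highest for 68.

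**Figure D2:**
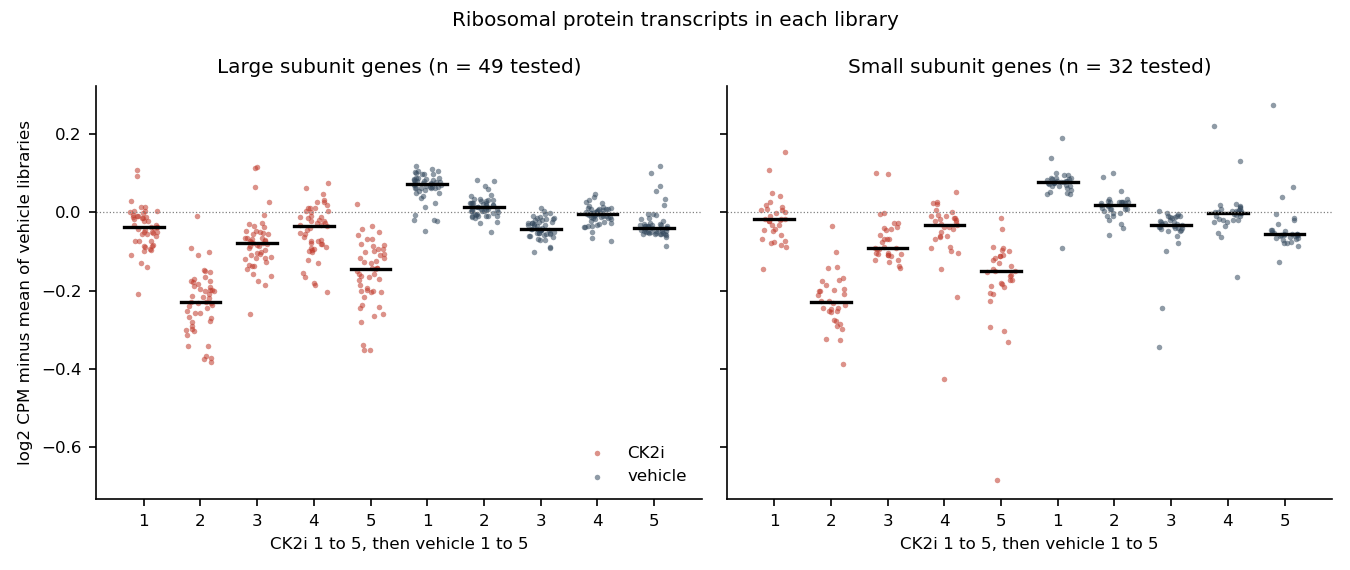
Each point is 1 tested gene in 1 library, as log2 CPM minus the mean of the vehicle libraries, for the large (left) and small (right) subunit; black lines are medians over genes. The medians of CK2i 2 lie at -0.23 in both panels, and those of CK2i 1 and 4 overlap the vehicle libraries.

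The spread between libraries also differed. The coefficient of variation of a member had a median of 6.20% over the CK2i libraries and 3.802% over the vehicle libraries, and it was higher in CK2i for 77 of the 81 members. The share over all tested genes is not given here, so this count is not read as particular to the members. On the first principal component of all tested genes, the SD was 18.4 in CK2i and 6.68 in vehicle. The groups did not overlap for 11 members, all of them lower in CK2i. That is 13.6% of the tested members, where 5.76% of all tested genes were apart with CK2i lower and 10.9% in either direction. The 8 of the large subunit were Rpl8, Rpl15, Rpl17, Rpl26, Rpl31, Rpl32, Rpl37 and Rpl37a, and the 3 of the small subunit included Rpsa and Rps21.

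Rpl37a, a small zinc-binding protein of the large subunit (ENSMUSG00000046330; GRCm38 chromosome 1, 72711290 to 72713813), was the member with the smallest adjusted p. Its levels were 632, 573, 622, 651 and 591 CPM in CK2i 1 to 5 and 740, 692, 689, 695 and 669 CPM in vehicle 1 to 5. CK2i 2 was lowest, vehicle 1 was highest, and all CK2i libraries lay below all vehicle libraries. The log2 fold change was -0.18 ± 0.04 (SE, edgeR adjusted p = 0.0279), and it held in 6 of the 10 fits with 1 library removed. With CK2i 1, 3 and 4 only it was -0.14 (edgeR adjusted p = 0.135).

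Rpl17 (chromosome 18, 74998558 to 75003381) encodes a protein at the exit of the tunnel through which new protein chains leave the large subunit. It was at 947, 835, 891, 952 and 874 CPM in CK2i 1 to 5, against 1077, 999, 990, 998 and 973 CPM in vehicle 1 to 5. The groups did not overlap, and vehicle 1 stood above the other vehicle libraries. The log2 fold change was -0.16 ± 0.05 (edgeR adjusted p = 0.0421; 0.203 with CK2i 1, 3 and 4 only). Rps21, a protein of the small subunit body (chromosome 2, 180257377 to 180258445), was at 427, 391.7, 414, 409 and 367 CPM in CK2i 1 to 5, against 476, 460, 445, 453 and 429 CPM in vehicle 1 to 5. Here too the groups were apart, with CK2i 5 lowest. Its log2 fold change was -0.17 ± 0.05 (edgeR adjusted p = 0.0387; 0.167 with CK2i 1, 3 and 4 only).

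Rpl22l1, the paralog of the RNA-binding protein gene Rpl22 (chromosome 3, 28805436 to 28807424), was at 73.3, 71.5, 70.7, 82.6 and 76.0 CPM in CK2i 1 to 5. It was at 85.5, 89.5, 84.8, 80.9 and 83.0 CPM in vehicle 1 to 5. The groups overlapped through CK2i 4, which was above vehicle 4. The log2 fold change was -0.18 ± 0.05 (edgeR adjusted p = 0.0386; 0.150 with CK2i 1, 3 and 4 only). With 1 library removed, Rpl17 and Rps21 held in 3 of 10 fits and Rpl22l1 in 2.

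For Rpl15 and Rpl31, both large subunit genes mutated in Diamond-Blackfan anemia, most reads were assigned to near-identical pseudogenes, so the values below cover the gene's own share. Rpl15 (chromosome 14, 18267823 to 18271391) was at 143, 121, 148, 140 and 130 CPM in CK2i 1 to 5, against 151, 163, 152, 156 and 158 CPM in vehicle 1 to 5. Rpl31 (chromosome 1, 39367842 to 39371911) was at 101, 92.8, 96.5, 98.5 and 90.0 CPM in CK2i 1 to 5, against 114, 111, 104, 106 and 105 CPM in vehicle 1 to 5. In both genes all CK2i libraries lay below all vehicle libraries. The log2 fold changes were -0.20 ± 0.05 for Rpl15 (edgeR adjusted p = 0.0414) and -0.17 ± 0.04 for Rpl31 (edgeR adjusted p = 0.0319). With 1 library removed, Rpl15 held in 2 of 10 fits and Rpl31 in 4, and with CK2i 1, 3 and 4 only the edgeR adjusted p was 0.134 for Rpl15 and 0.150 for Rpl31.

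**Figure D3:**
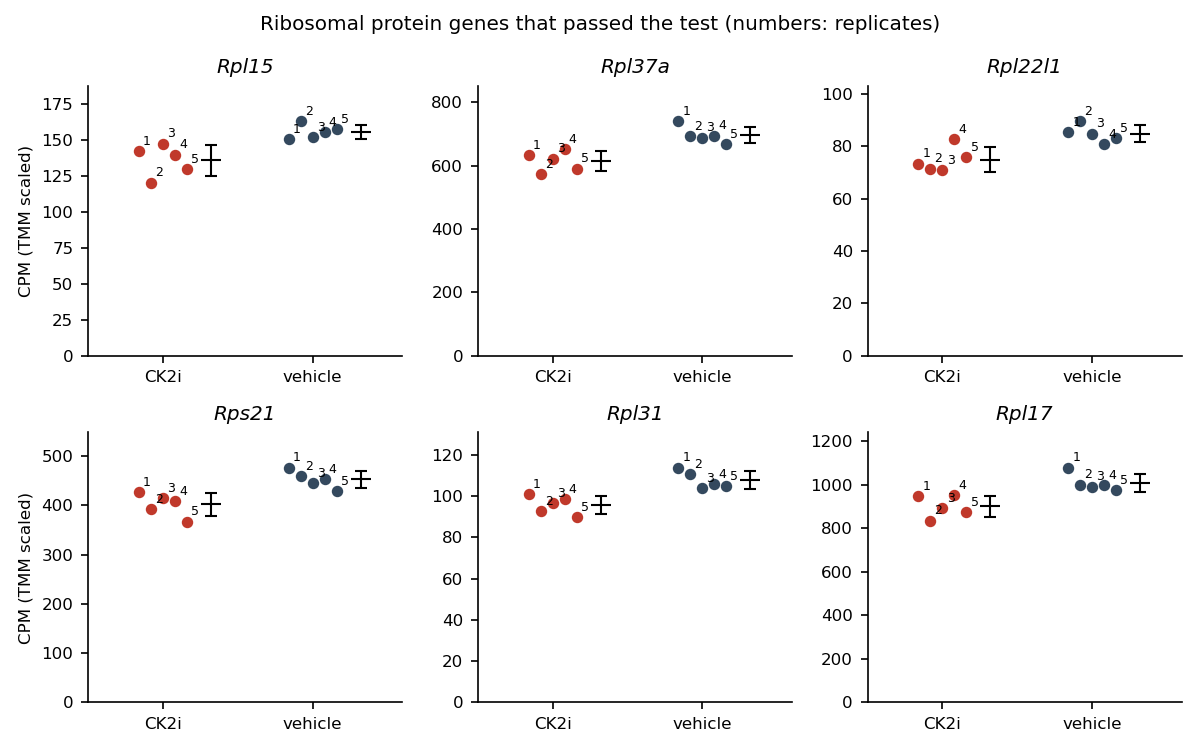
CPM of the 6 members that passed an adjusted p of 0.05, by library, with replicate numbers beside the points and mean ± SD to their right; axes start at 0. The groups are apart for all but Rpl22l1, where CK2i 4 at 82.6 CPM lies above vehicle 4 at 80.9 CPM.

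The largest fold in each subunit did not pass by edgeR, while DESeq2 called Rpl36 lower (DESeq2 adjusted p = 0.0293). Rpl36 was at 351 ± 35.3 CPM in CK2i and 406 ± 17.2 CPM in vehicle (SD, n = 5 each), a log2 fold change of -0.21 ± 0.07 (edgeR adjusted p = 0.0552), and Rps7 was at 841 ± 92.0 CPM in CK2i and 957 ± 42.7 CPM in vehicle (edgeR adjusted p = 0.0896). At the other end, Rps28, a small protein at the mRNA exit of the small subunit, was at 314 ± 16.4 CPM in CK2i and 313 ± 10.2 CPM in vehicle, with a fold change that turned to -0.03 when its copies were added. Rpl27 and Rpl5 alone differed by -0.01 and -0.02 on the log2 scale, and both turned above 0 with CK2i 1, 3 and 4 only. Most reads of both were assigned to copies, in vehicle 90.0% for Rpl27 and 94.4% for Rpl5. With copies added the log2 fold changes were -0.08 for Rpl27 (edgeR adjusted p = 0.266) and -0.10 for Rpl5 (edgeR adjusted p = 0.135).

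The 3 genes of the stalk, the flexible arm of the large subunit that recruits translation factors and a known substrate of CK2 at the protein level, had fold changes near the median of all members. None passed by edgeR or DESeq2, and all 3 were lower at an unadjusted p under 0.05. Rplp0, which anchors the stalk, was at 2631 ± 163 CPM in CK2i and 2835 ± 114 CPM in vehicle (log2 -0.11 ± 0.05, edgeR adjusted p = 0.139). Rplp1 was at 1165 ± 71.5 CPM in CK2i and 1273 ± 42.0 CPM in vehicle (log2 -0.13 ± 0.05, edgeR adjusted p = 0.0824). Rplp2 was at 651 ± 31.4 CPM in CK2i and 704 ± 21.6 CPM in vehicle (log2 -0.11 ± 0.04, edgeR adjusted p = 0.0797). Phosphorylation is not measured by these data.

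Among other members with a known role, Rpsa, the laminin receptor protein of the small subunit, was at 2498 ± 145 CPM in CK2i and 2761 ± 84.4 CPM in vehicle. All of its CK2i libraries lay below all vehicle libraries, while the test was missed (log2 -0.14 ± 0.04, edgeR adjusted p = 0.0540). Rps19, the gene most often mutated in Diamond-Blackfan anemia, was at 882 ± 61.2 CPM in CK2i and 952 ± 38.1 CPM in vehicle (log2 -0.11, edgeR adjusted p = 0.155). Rps3, at the mRNA entry of the small subunit, was at 1272 ± 77.3 CPM in CK2i and 1364 ± 54.8 CPM in vehicle (log2 -0.10, edgeR adjusted p = 0.162). Rpl11, which with Rpl5 and the 5S ribosomal RNA binds the p53 regulator MDM2, was at 485 ± 30.9 CPM in CK2i and 522 ± 14.6 CPM in vehicle (log2 -0.10, edgeR adjusted p = 0.137). Of 18 tested members mutated in Diamond-Blackfan anemia, 2 fell, Rpl15 and Rpl31, and none rose by edgeR, with a median log2 fold change of -0.11. At an unadjusted p under 0.05, 11 of the 18 were lower and none was higher, and DESeq2 called 4 lower and none higher. Over all 81 tested members, 6 fell by edgeR, 40 were lower at an unadjusted p under 0.05, and DESeq2 called 16 lower. Over all tested genes these shares were 6.76%, 16.6% and 9.44%. With near-identical copies added, neither Rpl15 (edgeR adjusted p = 0.226) nor Rpl31 (edgeR adjusted p = 0.0653) passed.

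How the reads were assigned bears on all levels in this family. Mammalian genomes hold many processed pseudogenes of ribosomal protein genes, and RSEM divides reads that match several of them by a model. A search of annotated transcripts with each coding sequence, at 95% identity over at least 80% of its length, found 381 copies of 69 members, 371 of them of a pseudogene type. Of these, 25 had a mean count over 1000. More than 10% of the reads of a gene and its copies were assigned to the copies for 23 members, and more than 50% for 13, of which 9 were large and 4 small subunit genes.

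The extreme cases were small subunit genes. Rps12 had no counts in any library, while its copies, led by Rps12-ps3 on chromosome 19, held a mean of 64750 counts. Rps27 also had no counts; its coding sequence is identical to that of Rps27rt, another member, which was at 2555 ± 191 FPKM (fragments per kilobase of transcript, scaled for depth) in CK2i and 2846 ± 103 FPKM in vehicle. Rps6, whose protein is the classic substrate of S6 kinases, was at 49.2 ± 9.76 FPKM in CK2i and 54.8 ± 9.09 FPKM in vehicle, and 97.9% ± 0.38 of the reads of the family in CK2i and 97.8% ± 0.42 in vehicle were assigned to copies, mostly to Rps6-ps4 on chromosome 2. With copies added the mean level of Rps6 over all 10 libraries was 2620 FPKM, against 52.0 FPKM alone.

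The mean share in copies was close in both groups for Rpl5, Rpl12 and Rpl31 and was higher in CK2i for Rpl15 and Rps7, differences that were not tested. It was 94.1% ± 0.49 in CK2i and 94.4% ± 0.27 in vehicle for Rpl5, 92.5% ± 0.64 in CK2i and 92.4% ± 0.53 in vehicle for Rpl12, and 87.5% ± 0.70 in CK2i and 87.4% ± 0.16 in vehicle for Rpl31 (SD, n = 5 each). For Rpl15 it was 85.5% ± 0.67 in CK2i and 84.3% ± 0.71 in vehicle. For Rps7 it was 14.5% ± 4.14 in CK2i, with libraries from 8.73% to 18.6%, and 10.8% ± 0.89 in vehicle, and its log2 fold change was -0.13 with copies added and -0.19 without them. The copies as a whole were lower in CK2i by about the same proportion as the members: those of the large subunit took 0.865% ± 0.057 of counts in CK2i and 0.927% ± 0.029 in vehicle, and those of the small subunit 0.552% ± 0.025 in CK2i and 0.585% ± 0.019 in vehicle.

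When the counts of copies were added to their member before the fit, an alternative chosen after seeing the data, 82 members were tested and 4 fell, 4.88% of them, where 6.9% of all genes fell. The 4 were Rpl17, Rpl22l1, Rpl37a and Rps21, all among the 6 above. Rpl15 was then at -0.08 ± 0.04 on the log2 scale (edgeR adjusted p = 0.226) and Rpl31 at -0.15 ± 0.05 (edgeR adjusted p = 0.0653). Of the 82, 81 lay below 0, and the median was -0.10 in each subunit. Rps6 with its copies was at -0.15 ± 0.05 (edgeR adjusted p = 0.0583) and Rps12 with its copies at -0.12 ± 0.04 (edgeR adjusted p = 0.0609).

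**Figure D4:**
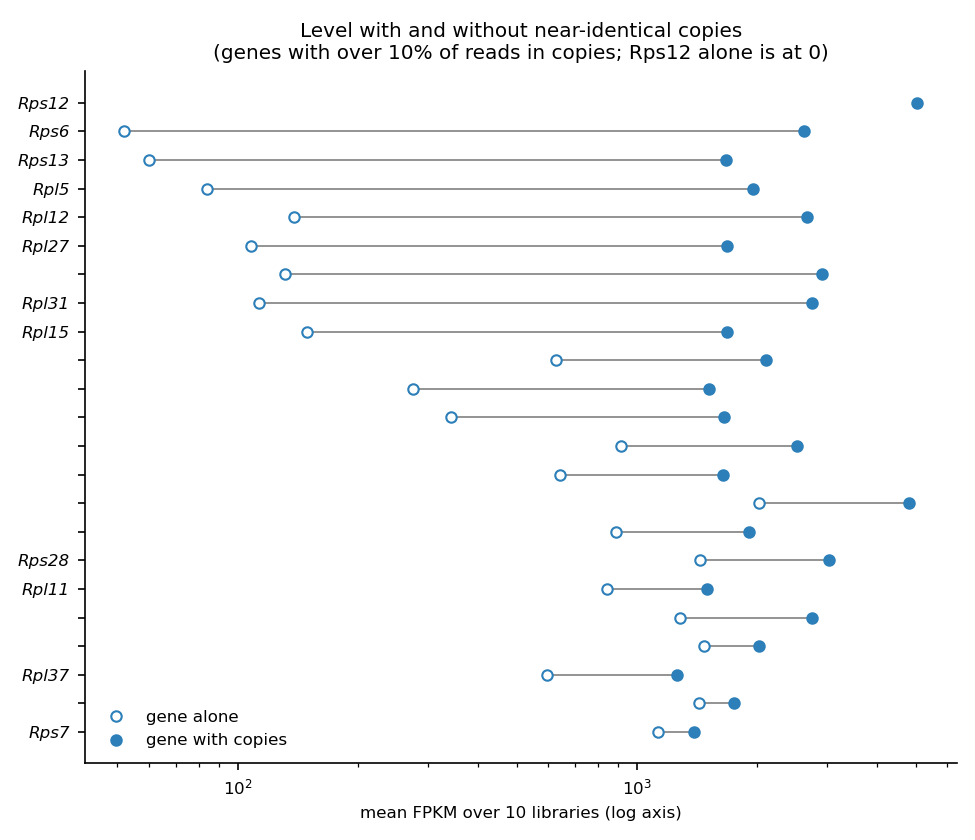
Mean FPKM over the 10 libraries, on a log axis, of the 23 members with over 10% of their reads in near-identical copies, for the gene alone (open points) and with its copies (filled points); genes named in the text are labelled. Rps6 lies at 52.0 FPKM alone and 2620 FPKM with copies, and Rps12 alone is at 0.

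Levels per transcript length were far more even once copies were included. The 7 paralogs, Rps19bp1 and Rps27 were left out, and Rps27rt, with an identical coding sequence, stood for Rps27. The 77 members left ran from 52.0 FPKM in Rps6 to 3704 FPKM in Rplp1 as deposited, 71.2-fold, with Rps12 at 0. With copies the highest was Rps12 at 5051 FPKM and the median was 1871 FPKM. Over the 76 members above 0 as deposited, the SD of log2 FPKM between genes was 0.48 with copies and 1.41 without. Summing FPKM over transcripts of unlike length makes the order of such sums approximate. As deposited, the highest were Rplp1 at 3704, Rpl41, the shortest ribosomal protein, at 3348, Rpl13a at 3205, Rpl32 at 2855 and Rpl23a at 2797 FPKM. Rplp1 was at 3544 ± 249 FPKM in CK2i and 3864 ± 114 FPKM in vehicle, and Rpl41 at 3273 ± 191 FPKM in CK2i and 3423 ± 103 FPKM in vehicle, so that the mean ± SD ranges of these neighbours overlap in CK2i and not in vehicle. The lowest tested members were Rps19bp1 at 26.0, Rps6 at 52.0, Rps13 at 59.9, Rpl7l1 at 65.3 and Rpl5 at 83.9 FPKM.

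Tissue-restricted paralogs were nearly silent. Rpl10l, expressed in testis, had no count in any library. Rpl3l, a gene of muscle, had 2 to 5 counts per library, and Rpl39l, best known from testis, had 1 to 16. These 3 genes and Rps12 and Rps27 were not tested. Of the tested paralogs, Rpl7l1, a nucleolar assembly factor related to Rpl7, had the highest fold change. Its level was 169, 146, 170, 162 and 159 CPM in CK2i 1 to 5 and 170, 160, 150, 154 and 153 CPM in vehicle 1 to 5. The groups overlapped (log2 0.04 ± 0.05, edgeR adjusted p = 0.635).

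The ratio of paralog to standard gene was compared for the 4 pairs with at least 1 FPKM in each gene, by exact permutation tests over samples, two-sided, with adjustment over the 4. The ratio of Rpl7l1 to Rpl7 in FPKM was 0.0439, 0.0436, 0.0462, 0.0406 and 0.0439 in CK2i 1 to 5 and 0.0415, 0.0395, 0.0392, 0.0393 and 0.0400 in vehicle 1 to 5. It was higher in CK2i except that CK2i 4 lay below vehicle 1 (exact permutation p = 0.0159, adjusted p = 0.0635). The ratio of Rpl22l1 to Rpl22 was 0.222 ± 0.009 in CK2i and 0.236 ± 0.010 in vehicle (exact permutation p = 0.0635, adjusted p = 0.127). That of Rpl36al to Rpl36a was 0.442 ± 0.016 in CK2i and 0.444 ± 0.014 in vehicle (exact permutation p = 0.810), and that of Rps4l, annotated as a transcribed pseudogene, to Rps4x was 0.00412 ± 0.0012 in CK2i and 0.00443 ± 0.00078 in vehicle (exact permutation p = 0.603). None passed after adjustment. Since Rps27 had no counts, Rps27l was set against the sum of Rps27 and Rps27rt, a ratio chosen after seeing the data. It was 0.112 ± 0.003 in CK2i and 0.111 ± 0.006 in vehicle (exact permutation p = 0.841).

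Genes that work with the ribosomal proteins gave the setting. Fau, which encodes a small subunit protein fused to a ubiquitin-like protein, and Rack1, a small subunit scaffold, lie outside the symbol rule and did not pass by edgeR or DESeq2. Their log2 fold changes were -0.05 for Fau (edgeR adjusted p = 0.516) and -0.12 for Rack1 (edgeR adjusted p = 0.116). Of 77 tested genes of the mitochondrial ribosome, a separate ribosome that translates mitochondrial mRNA, 3 fell and none rose (17 lower and none higher at an unadjusted p under 0.05, 5 lower and none higher by DESeq2), 68 lay below 0 and the median was -0.07, against -0.03 with CK2i 1, 3 and 4 only. Mrpl54, of its large subunit, fell to 39.6 ± 1.90 CPM in CK2i, against 47.2 ± 1.203 CPM in vehicle (log2 -0.25 ± 0.04, edgeR adjusted p = 0.0114), and held in all 10 fits with 1 library removed, but not with CK2i 1, 3 and 4 only (log2 -0.21, edgeR adjusted p = 0.0502). Mrpl52 and Mrpl50 also fell, with log2 fold changes of -0.33 (edgeR adjusted p = 0.0425) and -0.21 (edgeR adjusted p = 0.0425). They held in 4 and 3 of the 10 fits, and with CK2i 1, 3 and 4 only they were at -0.19 (edgeR adjusted p = 0.140) and -0.15 (edgeR adjusted p = 0.230).

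None of 15 genes of RNA polymerase I and ribosomal DNA transcription passed (median -0.04), nor any of 40 assembly factors of the large subunit (median -0.04) or of 9 core proteins of box C/D and H/ACA particles, which modify ribosomal RNA (median -0.06). DESeq2 called none in these 3 lists, and at an unadjusted p under 0.05 there were 1 lower of the 15, 2 higher and 2 lower of the 40 and 0 of the 9. Of 33 assembly factors of the small subunit, 1 fell, Rcl1, which takes part in pre-ribosomal RNA cleavage in yeast (log2 -0.22 ± 0.07, edgeR adjusted p = 0.0497). It held in 2 of 10 fits with 1 library removed, and was at -0.12 (edgeR adjusted p = 0.171) with CK2i 1, 3 and 4 only. In that fit the medians turned above 0 for RNA polymerase I (0.02) and for the assembly factors of the large (0.01) and small (0.01) subunit, and that of the box C/D and H/ACA proteins was -0.03. These medians describe the lists, and no list was tested.

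Of 20 other mRNAs with a 5′ TOP tract, 1 fell: Eef2, the elongation factor that moves the ribosome along mRNA, at 3553 ± 182 CPM in CK2i and 3980 ± 113 CPM in vehicle (log2 -0.16 ± 0.04, edgeR adjusted p = 0.0331). It held in 5 of 10 fits with 1 library removed. The median of the 20 was -0.07, and -0.03 with CK2i 1, 3 and 4 only. At an unadjusted p under 0.05, 2 of them were higher and 6 lower, and DESeq2 called 2 higher and 1 lower. Of 35 translation initiation factors, Eif1b fell (log2 -0.14, edgeR adjusted p = 0.0481) and Eif4g3, a scaffold of the cap-binding complex, rose (log2 0.28, edgeR adjusted p = 0.0388). Of 12 genes of ribosome quality control, Huwe1, a ubiquitin ligase, rose (log2 0.46 ± 0.14, edgeR adjusted p = 0.0492), with an SD of 150 CPM in CK2i and 16.4 CPM in vehicle. Eif1b held in 1, Eif4g3 in 3 and Huwe1 in 2 of 10 fits with 1 library removed. None of Eef2, Eif1b, Eif4g3 and Huwe1 passed with CK2i 1, 3 and 4 only (edgeR adjusted p = 0.0855 to 0.247), where the log2 fold change of Huwe1 was 0.19 and that of Eif4g3 was 0.15.

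**Figure D5:**
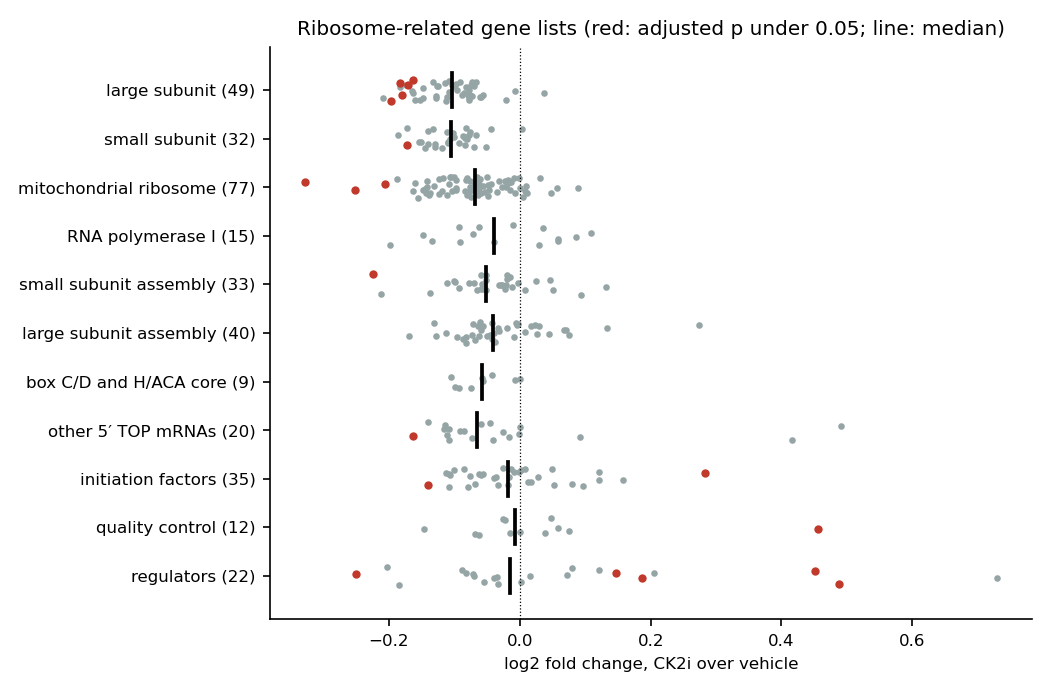
Log2 fold change (CK2i over vehicle) of each tested gene of 11 ribosome-related lists, with the number tested in brackets; vertical bars are medians and red points passed an adjusted p of 0.05. Both subunits of the cytosolic ribosome have a median of -0.10, the mitochondrial ribosome -0.07 and RNA polymerase I -0.04, the last of which was 0.02 with CK2i 1, 3 and 4 only.

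Among 22 regulators of ribosomal protein synthesis, 4 rose and 1 fell, so that 22.7% passed where 13.2% of all tested genes did, and the median was -0.02. Rps6ka1, which encodes a kinase of the RSK family that phosphorylates RPS6, rose to 233 ± 28.4 CPM in CK2i, against 166 ± 16.7 CPM in vehicle (log2 0.49 ± 0.09, edgeR adjusted p = 0.0160, and in all 10 fits with 1 library removed). Rps6ka3, of the same family, rose by 0.45 ± 0.12 (edgeR adjusted p = 0.0342). Mtor, the kinase that controls translation of 5′ TOP mRNAs, rose by 0.15 ± 0.04 (edgeR adjusted p = 0.0426), and Rptor, its partner in mTOR complex 1, by 0.19 ± 0.05 (edgeR adjusted p = 0.0416). Eif4ebp1, a translation repressor that mTOR inactivates, fell by 0.25 ± 0.07 (edgeR adjusted p = 0.0450). Of these, Rps6ka3 held in 4, Mtor and Eif4ebp1 in 3 and Rptor in 2 of 10 fits with 1 library removed. None of the 5 passed with CK2i 1, 3 and 4 only, where log2 fold changes were 0.36 for Rps6ka1, 0.28 for Rps6ka3, 0.09 for Mtor, 0.11 for Rptor and -0.15 for Eif4ebp1.

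Markers of other blood cells moved with the groups as well. Beside the counts below, 922 of all 14346 tested genes rose and 970 fell. Of 7 erythroid markers 5 rose, and the summed level of the list ran from 447 to 664 CPM in CK2i and from 303 to 488 CPM in vehicle. Klf1, an erythroid transcription factor, was the only 1 of the 7 below 0 (log2 -0.23, edgeR adjusted p = 0.0993). Of 5 markers of monocytes and macrophages 3 rose, with sums of 288 to 708 CPM in CK2i and 180 to 347 CPM in vehicle. Of 7 markers of mature neutrophils 2 rose, with sums of 21.8 to 88.4 CPM in CK2i and 11.01 to 45.1 CPM in vehicle. Ltf was the only 1 of these 7 below 0 (log2 -0.62, edgeR adjusted p = 0.350). Of 5 megakaryocyte markers 2 fell, with sums of 880 to 1906 CPM in CK2i and 1551 to 2402 CPM in vehicle. Of 8 progenitor markers, Kit fell and Mpo rose, and the summed level of the 8 ran from 4538 to 6520 CPM in CK2i and from 2860 to 4927 CPM in vehicle. Most of that sum was Mpo, at 4379 ± 814 CPM in CK2i and 2837 ± 713 CPM in vehicle, so it does not describe the other markers. Of 3 tested markers of B and plasma cells 1 fell, Jchain (log2 -0.94 ± 0.14, edgeR adjusted p = 0.00611), and it held in all 10 fits with 1 library removed. Sums over the list were 996 to 3541 CPM in CK2i and 1786 to 2494 CPM in vehicle. Most of that sum was Ighm, at 1332 ± 1013 CPM in CK2i and 1520 ± 277 CPM in vehicle, so it does not describe the other markers. Of 2 tested markers of T and NK cells 1 fell, with sums of 39.8 to 76.1 CPM in CK2i and 29.02 to 55.6 CPM in vehicle, and of 4 stromal markers 1 fell, with sums of 119 to 183 CPM in CK2i and 150 to 224 CPM in vehicle. The 3 markers of the epithelial tumour did not pass, and their sums were 8.24 to 10.9 CPM in CK2i and 5.41 to 10.996 CPM in vehicle. With CK2i 1, 3 and 4 only, the markers that passed were 2 of the erythroid list and 1 of the B and plasma cell list. No marker of these lists was at 0 in all libraries. The part of such cells in the ribosomal protein values was not tested.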

How the data were processed

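The members and gene lists were chosen with earlier results of these data known. Estimated counts and FPKM values per gene were deposited by the authors. Per the submitters' processing notes, Bowtie2, RSEM 1.2.31, DESeq2 and mm10 were used; annotation and strand setting: not given in the sources used here. Estimated counts as deposited were whole numbers, and those of near-identical genes depend on RSEM's model. Per the labels, a stranded total RNA kit and paired reads of 75 bases were used. No pair of libraries of a group agreed within sampling noise (chi-square per degree of freedom of at least 10.9).

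Symbols came from GENCODE M21 (GRCm38), which matched 37570 of 38887 identifiers; 2 blank lines were left out. The test was edgeR 4.0.16 (R 4.3.3) with quasi-likelihood, TMM, filterByExpr with a minimum count of 10, group as the only term, two-sided, and Benjamini-Hochberg adjustment over all 14346 tested genes; adjusted p under 0.05 passed. The script was tested on simulated counts. CPM values carry the TMM scaling, and standard errors were derived from the fold change and its F statistic. How much of a member's spread came from counting error, from RSEM's division of reads or from other differences between libraries was not tested. Counts per library differed widely between members, from 774 to 1196 in Rps13 and from 85215 to 129938 in Rplp0. Copies were found with blastn 2.17.0 at 95% identity, over 80% of the coding sequence and 40% of the copy's transcript. Alternatives were DESeq2 1.42.0, limma 3.58.1 on log2(FPKM + 1), other scalings and filters, a replicate block and libraries left out.

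Genes were named by rule: members that passed, the stalk genes, Rpsa, Rps6, Rps3, Rps19, Rpl5, Rpl11, the paralogs, the 3 highest and 3 lowest fold changes of each subunit, the 5 highest and 5 lowest levels, and list genes that passed. Members named for their copies or for groups that do not overlap were chosen after their values were seen. Promoter windows are from RefSeq (GRCm38.p6), and protein sequences were not used here. Some genes of the lists are not reported here.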

Additional observations from a re-analysis of the deposited data

Results flagged for a closer look

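Among 82 groups of 5 libraries that were looked at for a single library far from the others, 4 had one, and chance gives about 1 in 20. In vehicle 1, Rpl17 was at 1077 CPM, where the other vehicle libraries lay between 973 and 999 CPM. In the same library Rpl32 was at 1126 CPM, beside 1023 to 1047 CPM in the others, and Rpl36a was at 489 CPM, beside 447 to 458 CPM. In CK2i 5, Rpl5 was at 82.5 CPM, where the other CK2i libraries lay between 97.0 and 103 CPM. Most of the reads of Rpl5 were assigned to copies.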

How the results depend on the processing

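Both subunit medians stayed below 0 under every alternative run, and without 1 library they ran from -0.12 to -0.08 for the large and from -0.12 to -0.07 for the small subunit, while counts of passing genes moved; the cause was not tested. Of 49 tested large subunit genes, 5 passed; 3 passed with -ps pseudogenes added, with copies added or without a count filter, 1 with a replicate block, 11 by DESeq2, and 0 by limma on log2(FPKM + 1), with or without its filter, by limma on log2(FPKM + 0.1) or with CK2i 1, 3 and 4 only. Of 32 tested small subunit genes, 1 passed; these counts were 5 by DESeq2 and 0 without a count filter, by the 3 limma fits and with CK2i 1, 3 and 4 only. The 1892 passing genes became 3124, 916, 863 and 360 by DESeq2, limma on log2(FPKM + 0.1), limma on log2(FPKM + 1) and the same without a filter, 1139 with the replicate block and 175 with CK2i 1, 3 and 4 only. Leaving out 1 library gave 446 to 3198 genes, 0 to 9 large and 0 to 3 small subunit genes. The large count was 0 without CK2i 2, CK2i 5, vehicle 1 or vehicle 4, 1 without vehicle 2 or 5, 2 without vehicle 3 and 9 without CK2i 3. The small count was 3 without CK2i 3 or 4 and 0 without CK2i 2, CK2i 5 or any vehicle library. Directions turned for Rpl27 (0.0315 with -ps pseudogenes added, 0.0656 with CK2i 1, 3 and 4 only), Rpl5 (0.0391 with those libraries) and Rps28 (-0.0303 with copies, -0.00616 without a count filter, -0.0134 with upper quartile scaling). Without 1 library they ran from -0.0397 to 0.0274 for Rpl27, -0.0458 to 0.0292 for Rpl5 and -0.0242 to 0.0284 for Rps28. The log2 difference in the ratio of Rpl36al to Rpl36a ran from -0.0213 to 0.0110 without 1 library and was 0.00346 on CPM, and that of Rps4l to Rps4x ran from -0.258 to 0.0464. Same-numbered libraries of the groups had correlations of -0.19 to 0.25, not every library matched its own number best, and the numbers were not taken as pairs. The -ps pseudogenes are those named after a member. Of 651 values of 31 named members under alternatives, 550 kept their direction and side of the threshold, 75 lost it, 10 gained it and 16 turned. Ratios of Rps27l, Rpl39l, Rpl3l and Rpl10l to Rps27, Rpl39, Rpl3 and Rpl10 gave no value, since a gene was under 1 FPKM.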
